A study of Mus musculus with 6 samples.

Results

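The 10 genes described here are imprinted genes with known parts in growth, namely *H19*, *Dlk1*, *Meg3*, *Peg3*, *Mest*, *Plagl1*, *Grb10*, *Cdkn1c*, *Ndn* and *Zim1*. They were taken by gene name, and each of the 10 was found among the 48733 named genes of every library. RNA-seq was performed on 6 libraries from the inbred Collaborative Cross strain CC016/GeniUnc, a strain bred from a mixture of founder lines. There were 3 libraries labelled bone, which is cortical bone of the femur after removal of marrow, and 3 labelled osteoblasts. The osteoblasts were derived from bone marrow stromal cells and differentiated for 8 days in medium that held ascorbic acid (50 µg/ml), beta-glycerophosphate (10 mM) and dexamethasone (10 nM). No genotype other than the strain and no other treatment separates the groups, and the age and sex of the mice were not given in the sources used here. The replicates were described as biological replicates. The methods give 3 mice and take the cultured cells from isolated marrow. Bone and osteoblast libraries may thus share mice, but the labels do not tie a library to a mouse. The question put to these genes was how their levels differed between bone and cultured osteoblasts and from one library to the next.

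An imprinted gene is expressed mainly or only from the copy inherited from one parent. A methylation mark on a control region nearby, left in the germline of the mother or of the father, sets which copy that is. Paternally expressed members such as *Mest*, *Peg3*, *Plagl1* and *Dlk1* tend to favour growth of the fetus, while maternally expressed members such as *H19*, *Grb10* and *Cdkn1c* tend to restrain it. Many of these genes are high before birth, are turned down together as the skeleton and other organs mature, and stay on in stem and stromal cells. The files give the total level of each gene, and the parental copies were not told apart.

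The libraries fell into 2 kinds that did not follow the labels. *Hbb-bt*, which encodes a beta chain of hemoglobin, was at 3.43 to 7.05 FPKM (read pairs on a gene, divided by transcript length and by the mapped total of the library) in bone 1, bone 2 and osteoblasts 1, and at 34268 to 48650 FPKM in bone 3, osteoblasts 2 and osteoblasts 3. The first 3 are called Hbb-low and the last 3, above 1000 FPKM, Hbb-high. The summed FPKM of 8 measured neutrophil markers was 0.43 to 6.25 in the Hbb-low libraries, with *Elane* at 0 in each, and 14919 to 18094 in the Hbb-high libraries. Those of 6 skeletal muscle markers were 1.60 to 3.82 and 308 to 1216, with *Tnnc2* and *Pvalb* at 0 in the 3 Hbb-low libraries. The 7 osteoblast markers summed to 5258 to 8488 and 5566 to 6599 FPKM, largely from *Col1a1* and *Col1a2*. *Sp7* was at 12.5 to 38.7 FPKM over the 6 libraries, so osteoblast RNA was present in each library. Of the 7, 2 were all higher in the Hbb-low and 1 in the Hbb-high libraries. *Ibsp* was at 986 to 1278 and 43.1 to 91.3 FPKM, and *Bglap2* at 264 to 513 and 1641 to 1959 FPKM. The 5 measured markers of osteocytes, the cells within bone, summed to 57.1 to 135 and 48.2 to 53.5 FPKM and did not move one way, since *Dmp1* was at 50.0 to 127 and 22.5 to 24.2 FPKM while *Sost* was at 0.0661 to 0.198 and 15.8 to 22.7 FPKM. Blood and muscle markers were thus near 0 in bone 1, bone 2 and osteoblasts 1 and high in osteoblasts 2 and 3 as well as bone 3. Whether each label matches the content of its library was not tested, and the libraries are called by their labels throughout. The 5 macrophage markers summed to 1037 to 2035 and to 303 to 394 FPKM, the 6 stromal fibroblast markers to 901 to 2058 and 240 to 414 FPKM, and the 5 endothelial markers to 0.289 to 5.34 and 42.3 to 52.7 FPKM. Of the stromal fibroblast markers 4 were all higher in the Hbb-low libraries. *Lum* ran the other way, at 1.18 to 5.55 and 16.5 to 17.4 FPKM, and *Thy1* overlapped. Bone 2 and osteoblasts 1 also stood apart because features without a gene name took 71.5% and 65.0% of their FPKM, against 27.4% to 30.7% in the other 4. The implied depth was 2.04 to 3.39 Gb of aligned sequence, so that a transcript of 1 kb hit by 3 read pairs would be at 0.133 to 0.221 FPKM.

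In these libraries *Grb10* was the highest of the 10 genes throughout. In FPKM, 6 of the 8 members with a mean of at least 1 did not overlap between the Hbb-low and the Hbb-high libraries. All 8 overlapped between the labels in FPKM. Over all genes tested, 16.9% were above in the Hbb-low and 38.4% above in the Hbb-high libraries, so a lack of overlap was common. *H19*, *Mest*, *Grb10* and *Ndn* were higher in all 3 Hbb-low than in all 3 Hbb-high libraries, *Cdkn1c* and, by a narrow gap, *Peg3* were the other way round, and *Dlk1* was not detectable. In FPKM no member differed between the libraries labelled osteoblasts and those labelled bone beyond the spread of the libraries. On the named-gene scale explained below, every bone library was above every osteoblast library for *Meg3* alone.

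Sequences are shown first for the promoters of *Grb10*, *Mest* and *Ndn*, which with *H19* were higher in the Hbb-low libraries, and of *Peg3*, which was not. Promoters of *H19* and *Cdkn1c* were not analysed here. RefSeq (GRCm38.p6) gave 12 promoter entries for 8 of the members, each running from 250 bases before to 50 bases after the start. These are reference sequences and not those of CC016/GeniUnc, and they are printed 5′ to 3′ on the strand of the gene with each CG dinucleotide, the site of DNA methylation, in capitals. The first *Grb10* entry lies at chr11:12037371-12037670 on the minus strand and the first *Mest* entry at chr6:30733256-30733555 on the plus strand. The *Ndn* entry lies at chr7:62348027-62348326 on the plus strand and the *Peg3* entry at chr7:6730370-6730669 on the minus strand.
*Grb10*: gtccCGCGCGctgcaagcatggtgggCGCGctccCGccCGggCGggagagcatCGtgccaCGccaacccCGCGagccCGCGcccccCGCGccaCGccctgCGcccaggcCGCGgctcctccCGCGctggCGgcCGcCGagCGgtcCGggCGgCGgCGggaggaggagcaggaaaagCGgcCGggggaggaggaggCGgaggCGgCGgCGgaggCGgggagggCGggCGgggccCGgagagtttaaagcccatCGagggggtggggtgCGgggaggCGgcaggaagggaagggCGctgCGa
*Mest*: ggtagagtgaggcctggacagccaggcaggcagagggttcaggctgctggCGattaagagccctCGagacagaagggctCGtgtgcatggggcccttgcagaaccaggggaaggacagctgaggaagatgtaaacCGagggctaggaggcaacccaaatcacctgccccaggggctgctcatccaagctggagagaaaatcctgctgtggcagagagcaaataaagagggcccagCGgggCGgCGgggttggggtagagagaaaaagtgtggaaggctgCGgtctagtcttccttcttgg
*Ndn*: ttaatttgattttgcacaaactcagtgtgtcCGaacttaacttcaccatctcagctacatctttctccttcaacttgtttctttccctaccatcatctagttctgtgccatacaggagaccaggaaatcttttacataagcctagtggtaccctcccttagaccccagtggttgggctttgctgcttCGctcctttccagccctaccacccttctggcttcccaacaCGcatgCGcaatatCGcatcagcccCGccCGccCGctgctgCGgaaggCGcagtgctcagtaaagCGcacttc
*Peg3*: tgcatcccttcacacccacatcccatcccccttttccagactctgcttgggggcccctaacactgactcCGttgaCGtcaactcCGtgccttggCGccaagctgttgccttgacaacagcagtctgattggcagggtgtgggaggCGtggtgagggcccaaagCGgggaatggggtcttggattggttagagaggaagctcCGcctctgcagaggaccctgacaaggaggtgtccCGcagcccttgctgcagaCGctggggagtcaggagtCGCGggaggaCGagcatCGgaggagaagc

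The first *Grb10* entry held 45 CG dinucleotides in 300 bases, a count that 1.9% of the 32851 RefSeq promoters of that length reach. A second *Grb10* entry, not printed, held 9, reached by 45.8%. The next highest counts were 26 for *Plagl1*, reached by 16.9%, and 20 for *Zim1*, reached by 26.5%. The printed windows of *Peg3*, *Ndn* and *Mest* held 13, 11 and 8, against a median of 7 over all promoters, and a second *Mest* entry about the start of another transcript held 17. The palindrome GGGGCCCC, a GC-rich motif that reads the same on both strands, was searched in all entries. It was found in 1 of the 12 member entries, that of *Peg3*, and in 1.08% of all promoters. *Grb10*, *Mest* and *Ndn* thus differed in the CG count of the printed windows, and for *Grb10* and *Mest* the count depended on the entry.

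*H19*, *Mest* and *Meg3* each also contain a microRNA gene, whose mature products are shown because these host transcripts are their source. The seed (bases 2 to 8), which pairs with target RNAs, is in capitals.
miR-675-5p, within *H19*: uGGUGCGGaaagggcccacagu
miR-675-3p, within *H19*: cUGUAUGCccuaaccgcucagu
miR-335-5p, within *Mest*: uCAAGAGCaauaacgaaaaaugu
miR-335-3p, within *Mest*: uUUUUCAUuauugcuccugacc
miR-770-5p, within *Meg3*: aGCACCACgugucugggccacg
miR-770-3p, within *Meg3*: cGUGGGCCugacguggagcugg

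They lie at chr7:142577112-142577133 and chr7:142577078-142577099 (minus strand), chr6:30741314-30741336 and chr6:30741354-30741375 (plus strand), and chr12:109563710-109563731 and chr12:109563744-109563765 (plus strand), in the order shown. No seed is shared among the 6. The libraries were made for long RNA, so mature microRNAs were not measured, and the separate *Mir335* feature was listed at 0 in all 6 libraries. The host levels below are therefore levels of the long transcripts only.

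The non-coding RNAs come first. Positions given for the members are those of the measured features, which for *Mest*, *Plagl1* and *Ndn* start well before the RefSeq gene. The printed *Mest* and *Ndn* promoters, placed by RefSeq, therefore lie inside these features. *H19* (chr7:142575529-142578143, minus strand) is a maternally expressed long non-coding RNA that shares enhancers and a control region with *Igf2*. Its level was 36.9, 8.81 and 7.31 FPKM in bone 1, 2 and 3 and 11.7, 3.69 and 3.60 FPKM in osteoblasts 1, 2 and 3. The 3 Hbb-low libraries were the 3 highest, although bone 2 at 8.81 and bone 3 at 7.31 FPKM were close, and bone 1 alone was more than 3-fold above every other library. Within each hemoglobin status the bone libraries and the osteoblast libraries did not separate alike, since osteoblasts 1 lay between bone 1 and bone 2 while bone 3 lay above osteoblasts 2 and 3. *H19* was at the 87.5th percentile of the genes with at least 1 FPKM in bone 1 and at the 33.4th in osteoblasts 3.

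*Meg3* (chr12:109541001-109571726, plus strand) is the maternally expressed long non-coding RNA of the *Dlk1*-*Dio3* cluster, and its loss is linked to growth of tumours. It was at 1.95, 0.834 and 2.11 FPKM in bone 1 to 3 and at 0.380, 1.46 and 1.53 FPKM in osteoblasts 1 to 3. The lowest 2 libraries were osteoblasts 1 and bone 2, those in which unnamed features took most of the FPKM, and neither the labels nor the hemoglobin status separated the values. On the named-gene scale FPKM is divided by the summed FPKM of named genes and multiplied by 1000000. That sum was 355965 to 595021 in the Hbb-low and 823607 to 875547 in the Hbb-high libraries. The scale thus raises every gene in the Hbb-low libraries relative to the Hbb-high ones. A gene already higher in all Hbb-low libraries must stay so on it. *Meg3* was at 3.28, 2.34 and 2.41 in bone and 0.974, 1.69 and 1.86 in osteoblasts on this scale. The 3 bone libraries lay above the 3 osteoblast libraries, and the share of all genes that do so on it was not counted. The ratio of *H19* to *Meg3* in FPKM, which no scaling of a whole library changes, was 18.9, 10.6 and 30.8 in bone 1, bone 2 and osteoblasts 1 and 3.46, 2.54 and 2.35 in the Hbb-high libraries.

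*Dlk1* (chr12:109452823-109463336, plus strand) encodes a Notch-like surface protein of preadipocytes and stromal progenitors and is the paternally expressed partner of *Meg3*. It was listed at 0 in bone 1, bone 2 and osteoblasts 1 and at 0.0257, 0.0096 and 0.0320 FPKM in bone 3, osteoblasts 2 and osteoblasts 3. Every value was under what 3 read pairs on 1 kb give, so *Dlk1* was not detectable at this depth and no fold was computed. *Dio3*, the deiodinase gene at the far end of the same cluster, was at 8.07, 1.73 and 0.0410 FPKM in bone and 1.84, 0.0619 and 0.0412 FPKM in osteoblasts, with the Hbb-high values under the level of 3 read pairs.

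*Grb10* (chr11:11930508-12038683, minus strand) encodes an adaptor protein that binds the insulin and insulin-like growth factor receptors and restrains their signal. It had the highest level of the 10 genes in every library, with 39.7, 17.1 and 9.61 FPKM in bone 1 to 3 and 25.2, 8.57 and 7.87 FPKM in osteoblasts 1 to 3. The 3 Hbb-low libraries were all above the Hbb-high ones, the lowest at 17.1 against a highest of 9.61 FPKM, while osteoblasts 1 lay between bone 1 and bone 2. On the named-gene scale the Hbb-low libraries held 48.1 to 66.8 and the Hbb-high libraries 9.56 to 11.0. The values of the Hbb-high libraries were close to each other under either scale.

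Of the receptors and ligands listed for *Grb10*, *Insr* alone was in the files by name. *Insr*, the insulin receptor, was at 8.19, 4.38 and 15.1 FPKM in bone and 6.02, 11.6 and 12.6 FPKM in osteoblasts, so the Hbb-high libraries were higher in FPKM, while the values overlapped on the named-gene scale. The ratio of *Grb10* to *Insr* in FPKM was 4.85, 3.91 and 4.18 in the Hbb-low libraries and 0.635, 0.738 and 0.623 in the Hbb-high libraries.

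*Cdkn1c* (chr7:143458339-143461050, minus strand) encodes p57, an inhibitor of cyclin-dependent kinases that holds cells out of the cycle. It was at 2.25, 0.267 and 5.15 FPKM in bone 1 to 3 and 0.960, 6.80 and 4.86 FPKM in osteoblasts 1 to 3. The bone 2 value is close to the 0.205 FPKM that 3 read pairs on 1 kb give in that library. Here the 3 Hbb-high libraries were the highest, from 4.86 to 6.80 FPKM, and the Hbb-low libraries reached 2.25 FPKM at most. The order was kept on the named-gene scale, with 5.88 to 7.89 against 0.750 to 3.77. *Cdkn1c* made up 14.6%, 20.6% and 17.0% of the summed FPKM of the 10 genes in bone 3, osteoblasts 2 and osteoblasts 3, and 2.03%, 0.690% and 1.66% in bone 1, bone 2 and osteoblasts 1.

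Of 8 genes listed as targets of p57, 5 were in the files by name, all passed the filter and none differed between the labels in limma. *Cdk2*, a kinase that p57 inhibits, was at 5.20, 3.78 and 24.1 FPKM in bone and 4.24, 27.0 and 22.3 FPKM in osteoblasts. *Ccnd1*, which encodes cyclin D1, ran the other way, with 293, 166 and 5.50 FPKM in bone and 150.0, 6.33 and 5.17 FPKM in osteoblasts. *Ccnd3*, which encodes cyclin D3, was at 14.8, 14.8 and 83.1 FPKM in bone and 10.5, 52.7 and 140.2 FPKM in osteoblasts. *Cdk4* at 30.1 to 76.5 FPKM and *Ccne2* at 0.483 to 6.16 FPKM were likewise highest in the Hbb-high libraries in FPKM, but *Cdk4* overlapped on the named-gene scale. The sum over 5 measured markers of dividing cells was 13.9 to 32.2 FPKM in the Hbb-low libraries and 107.4 to 132.4 FPKM in the Hbb-high ones. Of these, 4 were all higher in the Hbb-high libraries, while *Bub1* overlapped, at 2.66 FPKM in bone 1 and 1.61 FPKM in bone 3. The part of dividing cells and of the listed targets in the level of *Cdkn1c* was not tested.

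**Figure D1:**
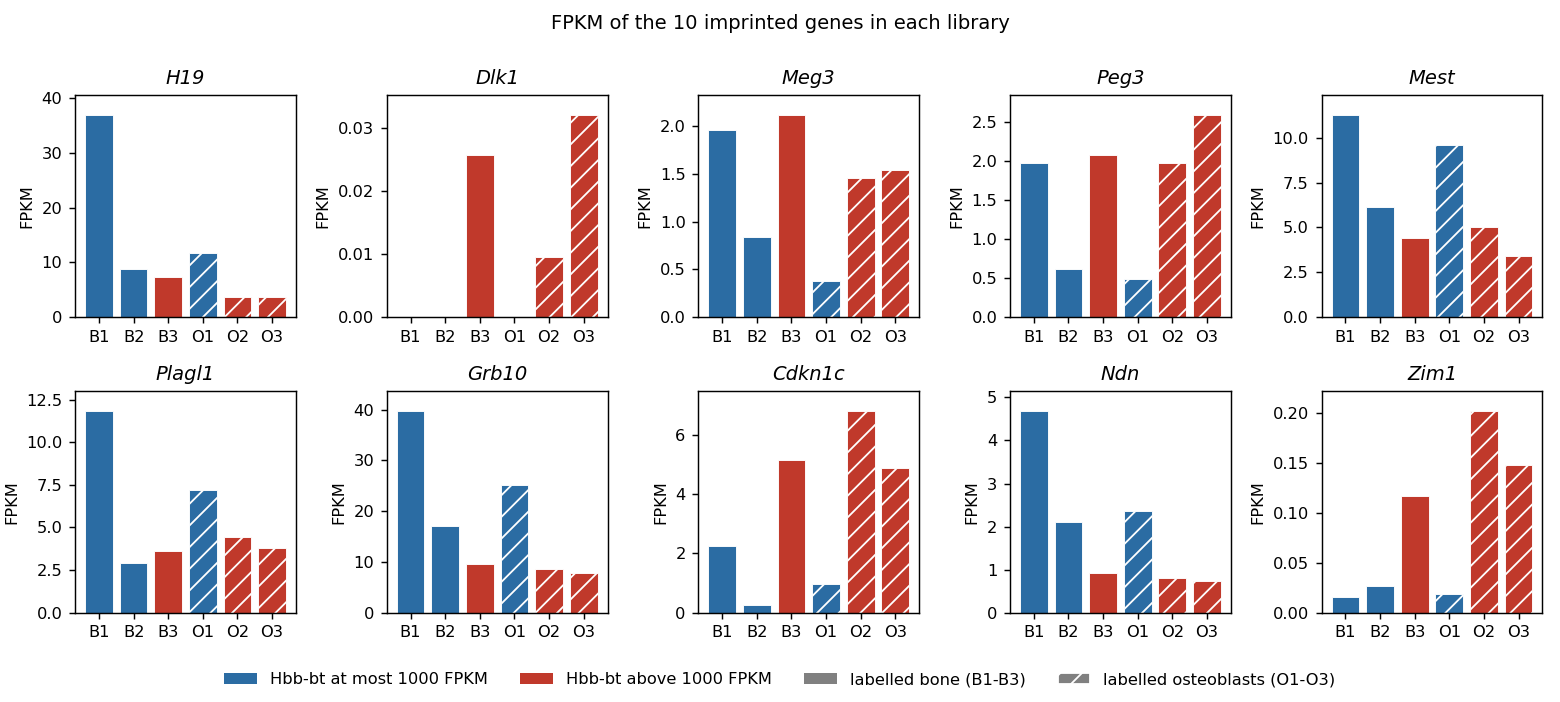
FPKM of each of the 10 genes in the 3 libraries labelled bone (B1 to B3, plain bars) and the 3 labelled osteoblasts (O1 to O3, hatched bars), each panel with its own axis from 0, blue where *Hbb-bt* was at most 1000 FPKM and red where it was above. *Grb10* runs from 7.87 to 39.7 FPKM with the 3 blue bars highest, *Cdkn1c* from 0.267 to 6.80 FPKM with the 3 red bars highest, and *Dlk1* stays below 0.04 FPKM in all 6.

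Next are the transcription factors. *Plagl1* (chr10:13060504-13131694, plus strand) encodes a zinc finger factor that regulates other imprinted genes. It was at 11.8, 2.90 and 3.65 FPKM in bone 1 to 3 and 7.22, 4.45 and 3.79 FPKM in osteoblasts 1 to 3. In FPKM the kinds of library overlapped, because bone 2 was the lowest of the 6. On the named-gene scale it was at 19.9, 8.14 and 18.5 in the Hbb-low libraries and 4.16, 5.17 and 4.60 in the Hbb-high ones, so whether *Plagl1* separated them depended on the scale.

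*Peg3* (chr7:6703892-6730431, minus strand) encodes a large zinc finger protein expressed from the paternal copy. It was at 1.98, 0.614 and 2.08 FPKM in bone 1 to 3 and 0.491, 1.98 and 2.59 FPKM in osteoblasts 1 to 3. The Hbb-high libraries were above the Hbb-low ones only by the narrow gap between osteoblasts 2 at 1.9811 and bone 1 at 1.9792 FPKM. On the named-gene scale the values overlapped, from 1.26 to 3.33 in the Hbb-low and 2.30 to 3.15 in the Hbb-high libraries.

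*Zim1* (chr7:6671269-6696450, minus strand), a zinc finger gene beside *Peg3* that is expressed from the maternal copy, was at 0.0158, 0.0269 and 0.117 FPKM in bone and 0.0189, 0.202 and 0.148 FPKM in osteoblasts. Osteoblasts 2 alone was above what 3 read pairs on 1 kb give in that library. *Zim3* and *Zfp264* of the same cluster were listed at 0 throughout.

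*Mest* (chr6:30723547-30748465, plus strand) encodes an enzyme of the hydrolase fold that is expressed in mesoderm and in expanding fat. It was at 11.3, 6.15 and 4.39 FPKM in bone 1 to 3 and 9.61, 5.03 and 3.40 FPKM in osteoblasts 1 to 3. The 3 Hbb-low libraries were again the highest, with bone 2 at 6.15 next to osteoblasts 2 at 5.03 FPKM. On the named-gene scale the ranges were 17.3 to 24.6 and 4.13 to 5.84. The smaller sum of named genes in the Hbb-low libraries by itself widens this gap. *Copg2*, which overlaps the end of *Mest* on the other strand, was at 12.8, 6.79 and 4.49 FPKM in bone and 6.94, 6.54 and 7.87 FPKM in osteoblasts. The library kit does not mark the strand, so reads in the stretch that both genes cover cannot be told apart.

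*Ndn* (chr7:62346569-62350262, plus strand) encodes necdin, a growth suppressor of the MAGE family that is expressed from the paternal copy in neurons and in mesenchymal cells. It was at 4.69, 2.12 and 0.917 FPKM in bone 1 to 3 and 2.35, 0.799 and 0.728 FPKM in osteoblasts 1 to 3. Every Hbb-low library was more than 2-fold above every Hbb-high library. Its ranges on the named-gene scale were 5.95 to 7.88 and 0.883 to 1.05. The ratio of *Ndn* to *Peg3* in FPKM was 2.37, 3.45 and 4.79 in the Hbb-low libraries and 0.440, 0.403 and 0.281 in the Hbb-high ones.

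**Figure D2:**
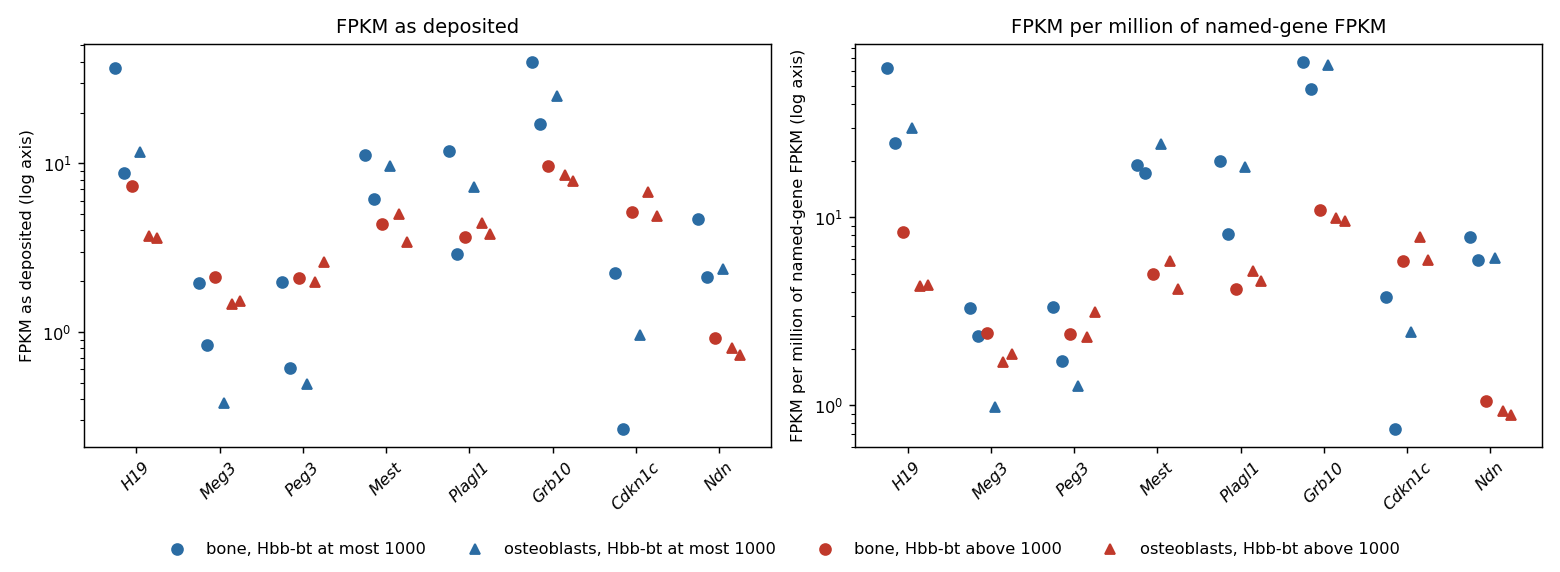
Level of the 8 genes with a mean of at least 1 FPKM in each library, as deposited FPKM (left) and on the named-gene scale (right), both on a log axis, with circles for bone, triangles for osteoblasts, blue for *Hbb-bt* of at most 1000 FPKM and red for above. *Grb10* and *Ndn* separate by colour on both scales and *Meg3* on neither. *Plagl1* separates only on the right, where its lowest blue point is at 8.14 and its highest red point at 5.17. The right scale divides by a sum that is smaller in every blue library, which raises the blue points.

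Of the 10 members, 8 had a mean of at least 1 FPKM and were tested, and *Dlk1* and *Zim1* were not. Of these 8, the Hbb-low libraries were all above the Hbb-high ones for 4 genes in FPKM (*H19*, *Mest*, *Grb10* and *Ndn*) and below them for 2 (*Peg3* and *Cdkn1c*). Among all 12112 genes tested the same held for 16.9% and 38.4%. On the named-gene scale the members gave 5 (with *Plagl1* added) and 1 (*Cdkn1c*), against 48.6% and 21.4% of all genes. So 4 of 8 stood beside a background of 16.9% on the first scale, while 5 of 8 on the second was near its background. *Ndn*, which is in both counts, was under 1 FPKM in each Hbb-high library and so passed the filter through the Hbb-low ones. The hemoglobin status was read from the libraries themselves, and these counts are descriptions without a test. In bulk RNA fewer cells of a type and less RNA per cell cannot be told apart, and the part of the blood, muscle, macrophage, stromal and endothelial markers given above in these differences was not tested.

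The makeup of the 10 genes differed with the same status. Their summed FPKM was 110.6, 38.8 and 57.9 in bone 1, bone 2 and osteoblasts 1 and 35.4, 33.0 and 28.6 in bone 3, osteoblasts 2 and osteoblasts 3. *Grb10* made up 35.9% to 44.1% of that sum in the Hbb-low and 26.0% to 27.6% in the Hbb-high libraries. *H19* made up 33.3%, 22.7% and 20.2% against 20.7%, 11.2% and 12.6%, so its share overlapped. *Mest* at 10.2% to 16.6% and *Plagl1* at 7.46% to 13.5% took shares that overlapped between the kinds, while *Peg3* took 0.850% to 1.79% in the Hbb-low and 5.89% to 9.08% in the Hbb-high libraries. The ratio of *Grb10* to *Cdkn1c*, both of which restrain growth, was 17.7, 64.1 and 26.2 in the Hbb-low libraries. It was 1.87, 1.26 and 1.62 in the Hbb-high libraries. The 64.1 of bone 2 rests on a *Cdkn1c* value of 0.267 FPKM, close to the level of 3 read pairs.

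**Figure D3:**
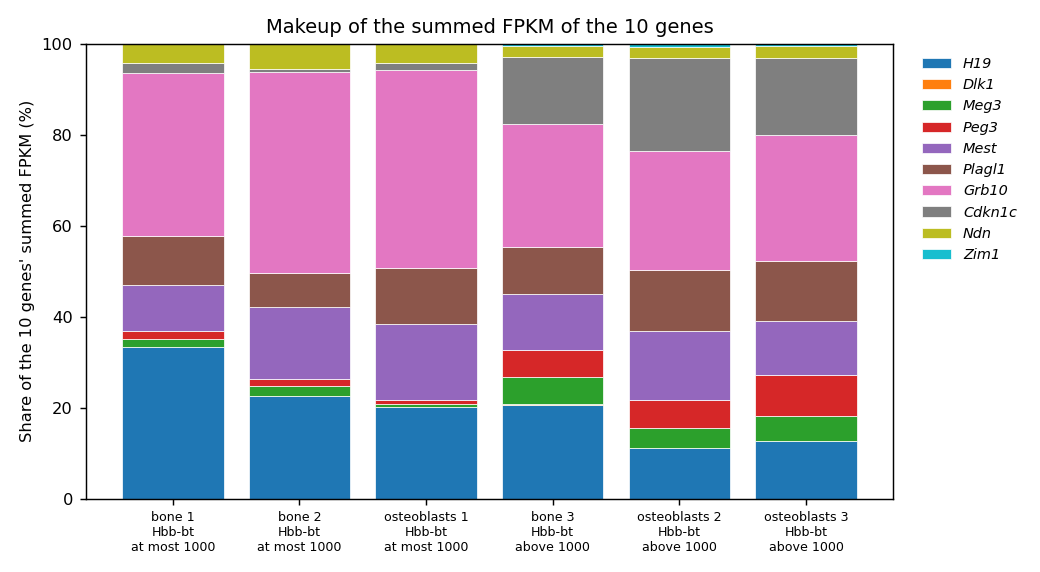
Share of each of the 10 genes in their summed FPKM, in percent, per library, with the 3 libraries of at most 1000 FPKM of *Hbb-bt* on the left. *Grb10* takes 44.1% in bone 2 and 26.0% in osteoblasts 2, and *Cdkn1c* 0.690% and 20.6% in the same libraries.

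The labels were then compared. limma on log2(FPKM + 1) called 0 of 12112 genes between osteoblasts and bone at an adjusted p of 0.05, that is 0% of the genes and 0 of the 8 members, and 17 genes had an unadjusted p under 0.05. The count rested on single libraries, with 77 genes called without bone 3 and 300 without osteoblasts 1, none of them a member. The values of bone and osteoblasts overlapped in FPKM for all 10 members. Over all genes tested 0.479% had every osteoblast library above every bone library and 0.438% the reverse. On this scale 6 members were lower and 2 higher in osteoblasts, with a median log2 fold change of -0.29 beside 0.12 over all genes.

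The largest difference over the 6 libraries was that of *H19*, at 17.7 ± 16.6 FPKM in bone and 6.33 ± 4.65 FPKM in osteoblasts (SD, n = 3 each). Its log2 fold change was -1.16 (SE 0.68, 95% interval -2.71 to 0.38, limma adjusted p = 0.999), and the exact permutation test gave p = 0.3, two-sided, where 0.1 is the smallest p that 3 against 3 libraries can reach. *Grb10* was at 22.2 ± 15.7 and 13.9 ± 9.78 FPKM, with a log2 fold change of -0.61 (SE 0.65, interval -2.07 to 0.86). *Cdkn1c* was at 2.55 ± 2.46 and 4.21 ± 2.97 FPKM, with 0.61 (SE 0.71, interval -0.99 to 2.21). *Ndn* was at 2.57 ± 1.93 and 1.29 ± 0.919 FPKM, with -0.57 (SE 0.53, interval -1.77 to 0.63). Without bone 1 the differences were nearer 0, at -0.47 for *H19*, -0.09 for *Grb10* and -0.16 for *Ndn*, and without bone 2 that of *Cdkn1c* was 0.002.

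The other members differed less. The log2 fold changes were -0.32 for *Meg3* (interval -1.37 to 0.72), -0.25 for *Mest* (-1.40 to 0.90), -0.04 for *Plagl1* (-1.26 to 1.18) and 0.04 for *Peg3* (-1.11 to 1.18). The adjusted p of limma was 0.999 for each of the 8 genes, and the exact permutation p ran from 0.3 to 1.0 over the 10. Each interval holds 0 and also a difference of 1 on the log2 scale in at least one direction, so differences of that size were not detectable with these libraries.

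Within the hemoglobin status the label differences were smaller for *Grb10*, at -0.06 in the Hbb-low libraries and -0.20 in the Hbb-high ones, and for *Cdkn1c*, at -0.05 and 0.14. *H19* was at -0.60 and -0.84, nearer 0 than its -1.16 over all libraries, and *Meg3* at -0.75 and -0.32. *Ndn* had -0.33 and -0.12, also nearer 0 than its -0.57 over all libraries. *Mest* had 0.18 and -0.07, *Plagl1* 0.22 and 0.14, and *Peg3* -0.56 and 0.09. No member was called in either subset. Each subset has 1 library on one side, whose spread is assumed to equal that of the other side. Blood and muscle markers were near 0 in bone 1 and bone 2 and high in osteoblasts 2 and osteoblasts 3. With these libraries left out, 1 library of each label remained and no test was possible. Of those, osteoblasts 1 is Hbb-low and bone 3 is Hbb-high, so label and hemoglobin status cannot be told apart in this pair. Osteoblasts 1 was above bone 3 for *H19* (11.7 and 7.31 FPKM), *Mest* (9.61 and 4.39), *Plagl1* (7.22 and 3.65), *Grb10* (25.2 and 9.61) and *Ndn* (2.35 and 0.917). It was below bone 3 for *Meg3* (0.380 and 2.11), *Peg3* (0.491 and 2.08) and *Cdkn1c* (0.960 and 5.15).

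**Figure D4:**
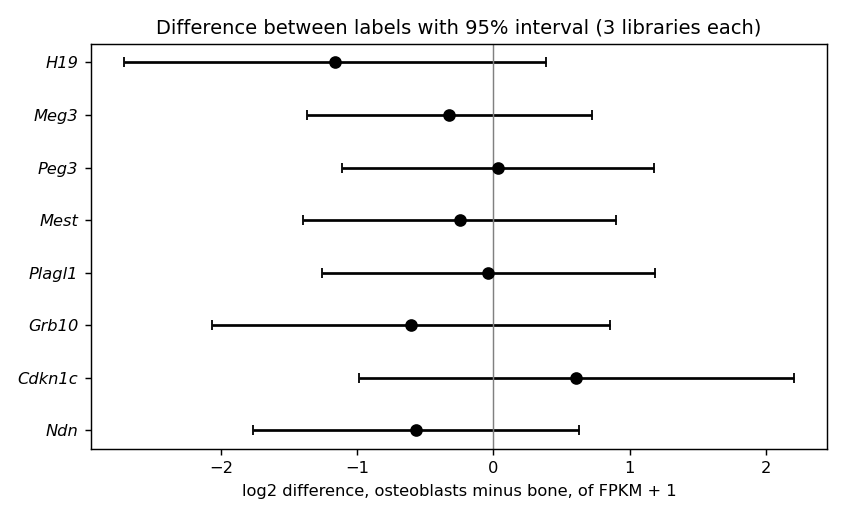
Difference between the labels in log2(FPKM + 1), osteoblasts minus bone, for the 8 genes tested, as points with 95% intervals from limma (3 libraries each). Every interval crosses 0, and *H19* lies farthest from it at -1.16.

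The genes around the members were then described. Of 57 other imprinted genes listed, 53 were in the files by name, 26 passed the filter and 0 were called between the labels, with 9 higher and 17 lower in osteoblasts and a median log2 fold change of -0.11. The Hbb-low libraries were all above the Hbb-high ones for 11 of the 26 in FPKM and for 18 on the named-gene scale, and all below for 7 and 5. These counts stand beside the same backgrounds of 16.9% and 48.6% for the Hbb-low and 38.4% and 21.4% for the Hbb-high direction. Some of these genes, *Dio3*, *Peg10* and *Asb4* among them, passed the filter through the Hbb-low libraries, where they are high.

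*Igf2*, the paternally expressed growth factor of the *H19* cluster, was at 18.6, 5.24 and 1.29 FPKM in bone 1 to 3 and 9.98, 1.01 and 1.85 FPKM in osteoblasts 1 to 3, and separated in the same direction as *H19*. The ratio of *H19* to *Igf2* was 1.98, 1.68 and 1.17 in the Hbb-low libraries and 5.65, 3.64 and 1.94 in the Hbb-high ones, which overlapped. *Igf2r*, the receptor that clears the growth factor, was at 37.3, 18.2 and 15.2 FPKM in bone and 24.7, 11.6 and 14.9 FPKM in osteoblasts. *Airn*, the non-coding RNA antisense to *Igf2r*, ran the other way at 2.23, 0.980 and 6.41 FPKM in bone and 0.626, 3.51 and 4.38 FPKM in osteoblasts. Reads of this antisense pair cannot be told apart where the genes overlap.

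In the *Peg10* cluster all 5 genes tested were higher in the Hbb-low libraries in FPKM, as were 16.9% of all genes tested. On the named-gene scale the same follows from its smaller sums in these libraries, and 48.6% of all genes were higher there. *Peg10* and *Asb4* were under 1 FPKM in each Hbb-high library and so passed the filter through the Hbb-low ones. *Peg10*, a gene derived from a retrotransposon, was at 4.49, 3.47 and 0.385 FPKM in bone and 6.04, 0.361 and 0.278 FPKM in osteoblasts. *Asb4*, which encodes a subunit of a ubiquitin ligase, was at 6.16, 4.39 and 0.218 FPKM in bone and 5.15, 0.256 and 0.440 FPKM in osteoblasts. *Sgce* at 3.51 to 16.5 FPKM and *Casd1* at 1.83 to 6.04 FPKM differed less between libraries.

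Beside *Cdkn1c* in the *Kcnq1* cluster, *Cd81* and *Osbpl5* were higher in the Hbb-low libraries, at 110.6 to 209 FPKM and 11.1 to 25.7 FPKM against 83.9 to 92.5 FPKM and 7.52 to 9.93 FPKM. *Nap1l4* at 13.7 to 47.6 FPKM was higher in the Hbb-high libraries in FPKM, and *Tssc4* at 5.47 to 15.6 FPKM overlapped. *Ube3a*, which lies in the cluster of *Ndn* and encodes a ubiquitin ligase, was at 3.86 to 8.27 FPKM and 2.10 to 3.36 FPKM. *Dcn*, which encodes the matrix proteoglycan decorin, was at 15.9, 8.56 and 81.5 FPKM in bone and 7.81, 81.1 and 88.6 FPKM in osteoblasts, the widest gap in favour of the Hbb-high libraries among the imprinted genes named. *Trappc9* at 6.64 to 20.6 FPKM and *Mcts2* at 1.01 to 5.76 FPKM were also higher there in FPKM. *Gnas*, *H13*, *Blcap*, *Peg13* and *Inpp5f* overlapped in FPKM, with *Gnas* the highest of them at 125.8 to 259 FPKM.

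**Figure D5:**
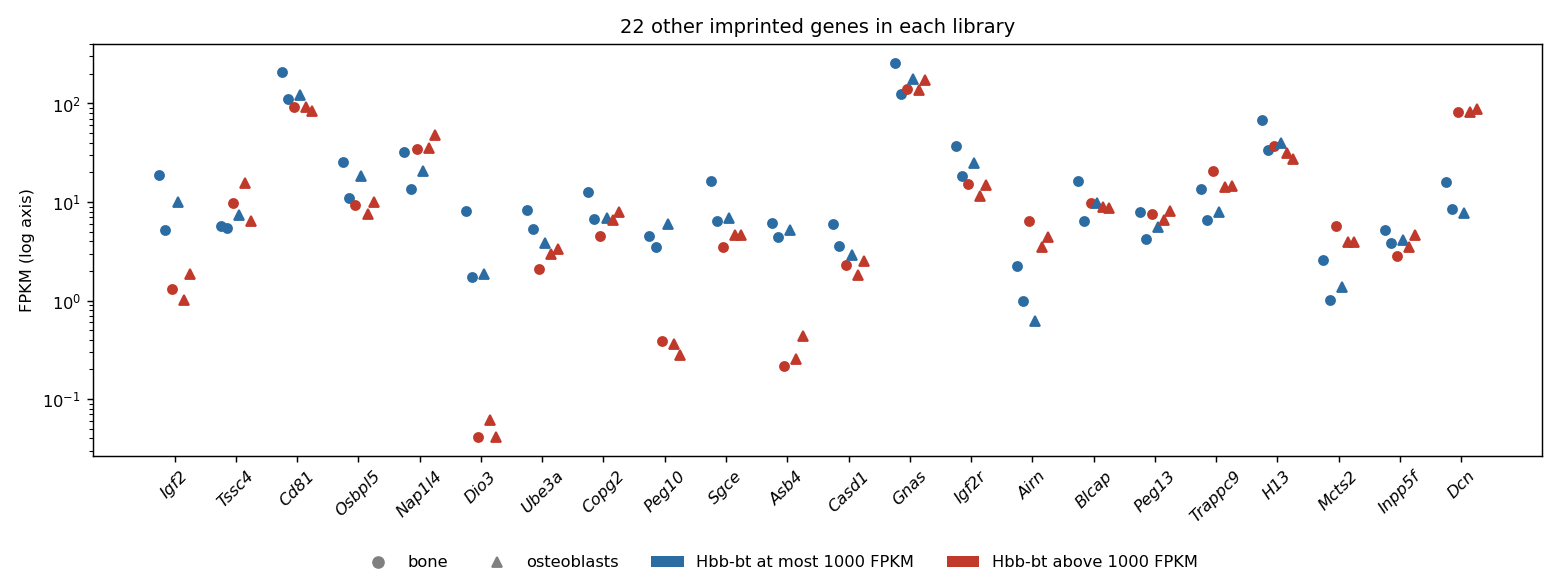
FPKM on a log axis of the 22 other imprinted genes that reached 5 FPKM in some library, with circles for bone, triangles for osteoblasts, blue for *Hbb-bt* of at most 1000 FPKM and red for above. *Dio3*, *Peg10* and *Asb4* show the blue points far above the red, *Dcn* the reverse, and *Gnas* is at 125.8 to 259 FPKM with the colours mixed.

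Genes whose pattern was most like that of a member were found by the correlation of log2(FPKM + 1) over the 6 libraries. For *Grb10* they were *Col4a1* (r = 0.9995), *Gadd45g* and *Tex264*, and for *Ndn* *Tcaf1* (r = 0.9993), *Kdelr2* and *Pld2*. *H19* was most like *Sardh* (r = 0.998), *Arfgap3* and *Rcan3*, and *Mest* most like *Rem1* (r = 0.995), *Metrnl* and *Camk2n2*. For *Cdkn1c* they were *Eef1d* (r = 0.999), *Gm10709* and *Mrps34*, for *Peg3* *Hmgxb4* (r = 0.997), *Gm7729* and *Ccdc34*, for *Plagl1* *Bloc1s6* (r = 0.996), *Ddx18* and *Jagn1*, and for *Meg3* *Map3k12* (r = 0.981), *Mthfsl* and *Sned1*. These are the highest of 12112 values over 6 points that share library, depth and hemoglobin status, and they describe these libraries only.

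For some members FPKM was high for the read depth along the feature, and the reason was not tested. The ratio of coverage (the average read depth along a feature) to FPKM was 100% of the usual ratio of the library for *Ndn*, 40.6% to 93.4% for *H19* and 44.4% to 48.9% for *Grb10*, but 4.90% to 12.1% for *Plagl1*, 6.60% to 13.6% for *Meg3* and 13.2% to 23.2% for *Mest*. With coverage per Gb of implied depth in place of FPKM, *Plagl1* was at 1.33, 0.348 and 0.875 in the Hbb-low and 0.294, 0.216 and 0.332 in the Hbb-high libraries, which did not overlap. *Peg3* was at 1.2545, 0.497 and 0.402 and at 1.59, 1.2457 and 1.56, which did. *Grb10*, *H19*, *Mest*, *Ndn* and *Cdkn1c* separated in the same direction on this scale as in FPKM, with *Cdkn1c* at 0.249 to 1.51 and 2.69 to 3.97.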

How the data were processed

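RNA was sequenced from 3 libraries labelled bone and 3 labelled osteoblasts as 75 bp pairs. The authors aligned reads to GRCm38 with HISAT2 2.0.5 and an index aware of SNPs, and estimated levels with StringTie 1.3.3. SAMtools 1.7 is named in the submitters' processing notes. The deposited FPKM are scaled to all mapped fragments of a library, the deposited TPM rescale the same values within a library, and the deposited coverage signal is the average read depth along a feature. The tables used here hold no read counts, so no count model was run and intervals for single values cannot be given.

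Rows with the same gene name were summed, and unnamed features were left out of the tests. The mode of coverage over FPKM, taken where coverage passed 1, gave the depth of each library. Genes with a mean of at least 1 FPKM were compared between labels with limma 3.58.1 in R 4.3.3, with eBayes and a mean-variance trend, on log2(FPKM + 1) with Benjamini-Hochberg adjustment. A fold change on this scale understates that of low genes. The fit was tested on simulated data. Exact permutation tests compared single genes. The replicates are separate samples by the design text, and p-values measure only the spread between these 6 libraries. The main fit and the permutation tests treated the 6 libraries as independent, although bone and osteoblast libraries may share mice. Members, gene lists and hemoglobin status were chosen with earlier results of these data known. Beside the 10 members, the text names listed imprinted and partner genes of at least 5 FPKM in some library, the 3 genes most like each tested member, markers, and any gene called by limma. *Zim3*, *Zfp264* and *Mir335* are named for their position, chosen after their values were seen.

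Alternatives were other pseudocounts, filters, TPM, 3 scalings, no trend, a replicate block, hemoglobin status as a term or a subset, and leaving out each library. Coverage over depth was added after seeing the data. Promoter and microRNA sequences are from RefSeq, GRCm38.p6. Tables and plots were made in Python 3.11.15 (pandas 2.3.3, numpy 2.4.6, scipy 1.17.1, matplotlib 3.10.9).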

Additional observations from a re-analysis of the deposited data

Results flagged for a closer look

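Features without a gene name lie inside 4 of the members and held signal above what 3 read pairs on a transcript of the feature's own span give, although no comparison above uses them. Inside *Meg3* the feature MSTRG.15380 (chr12:109547118-109549150, plus strand, 2033 bp) reached 1.41 FPKM in bone 3, where that level is 0.0883 FPKM, and passed it in all 6 libraries. Inside *Mest* MSTRG.52242 (chr6:30739204-30739444, 241 bp) reached 1.12 FPKM in bone 3, where the level is 0.745 FPKM, and passed it in 2. Inside *Peg3* MSTRG.56059 (chr7:6719325-6719646, 322 bp) reached 1.52 FPKM in osteoblasts 2, where the level is 0.412 FPKM, and passed it in 2. Inside *Plagl1* MSTRG.5261 (chr10:13111848-13112333, 486 bp) reached 0.445 FPKM in osteoblasts 2, where the level is 0.273 FPKM, and passed it in 1. The highest value of each of the 4 was in an Hbb-high library. No group has 4 samples, so single libraries were not screened for standing apart.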

How the results depend on the processing

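No member was called under any of the 20 alternatives, and the smallest adjusted p of a member was 0.214, without osteoblasts replicate 1. The number of all genes called was 0 under the changes of pseudocount, filter, unit, scaling and trend. It was 16 with hemoglobin status as a second term, 8 in the Hbb-low and 1 in the Hbb-high libraries alone, and 0 to 300 when 1 library was left out, with 77 without bone replicate 3 and 300 without osteoblasts replicate 1. With the replicate number as a block it was 49. The deviations of same-numbered libraries had correlations of 0.841, -0.747 and 0.830 over 12112 genes. The libraries numbered 1 were both Hbb-low, those numbered 3 both Hbb-high, and those numbered 2 differed in status. These correlations therefore cannot decide whether the numbers pair the samples by mouse, and the main fit assumed no pairing. The cause of the differing counts of genes called was not tested. Scaling to named genes moved the median of all genes from 0.12 to -0.03. *H19*, *Meg3*, *Grb10* and *Ndn* kept their sign throughout, and 134 of 156 member values kept theirs. *Peg3* (0.04) turned to -0.001 with a pseudocount of 0.01, -0.031 in TPM, -0.102 scaled to named genes, -0.020 scaled to the 75th percentile, -0.099 after quantile normalization, -0.235 with hemoglobin status as a term, -0.557 in the Hbb-low libraries, -0.039 in coverage and -0.267 to 0.414 without 1 library. *Mest* (-0.25) turned to 0.058 with the status term, 0.180 in the Hbb-low libraries and -0.596 to 0.078 without 1 library. *Plagl1* (-0.04) turned to 0.177, 0.217 and, in the Hbb-high libraries, 0.137, and ran from -0.367 to 0.492 without 1 library. *Cdkn1c* (0.61) turned to -0.049 in the Hbb-low libraries and was 0.002 without bone replicate 2. The median of the members was -0.47 to -0.005 over all alternatives, the latter without bone replicate 1. Depth set the limit for *Dlk1* and *Zim1*.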
